A study of Mus musculus with 10 samples.

Results

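Grb10, Ddc, Cobl, Igf2r, Airn and Gnas are 6 genes of 3 imprinted regions of the mouse genome, and their expression was compared in embryonic stem cells with and without a CTCF binding element. CTCF is a DNA-binding protein that shapes chromatin loops, and the element (CBE) is described by the study as lying among enhancers of the HoxA cluster, on a chromosome that holds none of the 6 genes. They were taken by symbol from 52636 Ensembl gene identifiers in the deposited counts, each matched 1 identifier, and 5 of the 6 had enough reads to enter the test of 16005 genes. RNA came from cells of E14, a mouse embryonic stem cell line, moved to medium without LIF and the 2 inhibitors of self-renewal and given 2 µM retinoic acid for 24 h. Unedited cells (WT, genotype label WT) were set against cells of genotype CBE-KO, with 2 libraries each. By the labels both groups had the same line and treatment, though counts of Y-linked genes differed between them, as given below. The series calls its replicates biological, without naming separate cultures or the number of edited clones. Errors therefore measure only the spread between these libraries, and standard errors pool part of that spread over all tested genes. The members were chosen by locus and by their CBE-KO against WT fold changes in these same libraries, so their own differences are given as a description, without a p-value.

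Imprinted genes are expressed mainly from the copy inherited from a single parent, under the control of DNA methylation laid down in egg or sperm. Grb10 encodes an adaptor that binds the insulin and IGF1 receptors and restrains growth. It lies beside Ddc, the decarboxylase that makes dopamine and serotonin, and Cobl, an actin nucleator. Igf2r encodes the receptor that clears the growth factor IGF2 and sorts lysosomal enzymes carrying mannose 6-phosphate. The noncoding RNA Airn is transcribed across its start in the opposite direction and is known to silence the paternal Igf2r copy once cells differentiate. Gnas encodes the stimulatory G protein alpha subunit, which couples hormone receptors to adenylyl cyclase, and its several promoters give maternal, paternal and biallelic transcripts. The counts were made per gene, so neither the parental copy nor the promoter used was measured.

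The start regions of these genes differ in base composition. RefSeq promoter windows on GRCm38.p6, from 250 bases before to 50 bases after a start, were found for all 6 genes, 12 windows in all. The windows printed show the adjacent Grb10 and Ddc starts, the opposed Igf2r and Airn starts, and the most upstream and most downstream of the Gnas windows. Capitals mark AGGTCA or TGACCT, the core recognised by retinoic acid and other nuclear receptors on either strand, and AGGGGGC or GCCCCCT, a stretch of the consensus bound by CTCF. No window held both motifs.
Grb10 start 1: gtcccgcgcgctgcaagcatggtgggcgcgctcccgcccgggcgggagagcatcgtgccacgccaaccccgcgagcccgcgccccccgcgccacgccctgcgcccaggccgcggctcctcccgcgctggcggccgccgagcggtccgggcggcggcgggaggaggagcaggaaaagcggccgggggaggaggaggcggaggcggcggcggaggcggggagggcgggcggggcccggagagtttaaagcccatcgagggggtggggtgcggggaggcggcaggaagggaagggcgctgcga
Ddc start 1: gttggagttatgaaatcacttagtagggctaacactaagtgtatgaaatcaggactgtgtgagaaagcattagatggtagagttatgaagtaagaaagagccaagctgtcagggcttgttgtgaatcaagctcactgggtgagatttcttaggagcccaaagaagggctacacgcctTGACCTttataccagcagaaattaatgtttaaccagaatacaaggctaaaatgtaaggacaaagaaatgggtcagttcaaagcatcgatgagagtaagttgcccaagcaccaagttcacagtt
Ddc start 2: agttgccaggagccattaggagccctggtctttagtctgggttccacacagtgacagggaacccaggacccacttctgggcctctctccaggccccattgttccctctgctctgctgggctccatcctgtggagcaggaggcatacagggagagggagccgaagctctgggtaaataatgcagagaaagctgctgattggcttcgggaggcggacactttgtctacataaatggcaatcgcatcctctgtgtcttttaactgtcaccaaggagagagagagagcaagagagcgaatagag
Igf2r: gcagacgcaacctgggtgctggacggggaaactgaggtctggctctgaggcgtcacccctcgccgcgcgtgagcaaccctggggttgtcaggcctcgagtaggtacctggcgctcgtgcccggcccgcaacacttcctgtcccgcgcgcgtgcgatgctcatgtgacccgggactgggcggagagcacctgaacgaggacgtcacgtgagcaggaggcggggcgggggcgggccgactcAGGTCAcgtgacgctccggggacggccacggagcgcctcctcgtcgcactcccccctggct
Airn: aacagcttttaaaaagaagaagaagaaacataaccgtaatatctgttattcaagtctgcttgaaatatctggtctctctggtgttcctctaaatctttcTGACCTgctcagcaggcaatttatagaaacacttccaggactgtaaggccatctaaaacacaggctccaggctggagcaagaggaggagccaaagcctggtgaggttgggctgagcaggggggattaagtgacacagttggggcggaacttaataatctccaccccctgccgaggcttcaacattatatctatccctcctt
Gnas start 1: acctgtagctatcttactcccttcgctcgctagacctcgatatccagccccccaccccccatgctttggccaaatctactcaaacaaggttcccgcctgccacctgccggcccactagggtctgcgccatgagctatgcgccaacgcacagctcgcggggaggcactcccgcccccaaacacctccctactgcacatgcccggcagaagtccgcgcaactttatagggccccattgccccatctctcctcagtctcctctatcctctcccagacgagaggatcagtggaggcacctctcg
Gnas start 4: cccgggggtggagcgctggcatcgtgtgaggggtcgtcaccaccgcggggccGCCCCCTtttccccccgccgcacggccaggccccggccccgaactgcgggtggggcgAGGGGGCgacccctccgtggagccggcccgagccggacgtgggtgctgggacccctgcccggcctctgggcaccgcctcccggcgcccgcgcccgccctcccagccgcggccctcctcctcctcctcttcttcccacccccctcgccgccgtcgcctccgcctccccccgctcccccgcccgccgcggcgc

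Grb10 start 1 lay on the minus strand at chr11:12037371-12037670 and held 45 CG dinucleotides, more than 98.1% of the 32851 mouse promoter windows, whose median was 7. The Ddc windows, at chr11:11898095-11898394 and chr11:11890359-11890658 on the same strand, held only 2 and 5. The Igf2r window, chr17:12769657-12769956 on the minus strand, held 34 CG dinucleotides, and the Airn window, chr17:12741061-12741360 on the plus strand, held 3. Gnas start 1 at chr2:174284070-174284369 held 16 and Gnas start 4 at chr2:174329756-174330055 held 40, both on the plus strand. AGGTCA occurred in 3 of the 12 windows, those of Igf2r, Airn and Ddc start 1, and in 16.3% of all windows. AGGGGGC occurred in 3 windows, all of Gnas, of which 2 overlap each other, and in 10.6% of all windows. These matches are letters in a window and show no binding.

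The 4 libraries held 14108038 to 15632960 counts. The floor of measurement was taken as 3 counts, which equalled 0.185 to 0.218 CPM (read counts scaled to a common library size). Replicates differed by more than sampling noise, with a chi-square per degree of freedom of 3.40 within WT and 2.70 within CBE-KO. Of 16005 genes, 43.1% were called different (edgeR quasi-likelihood test, adjusted p under 0.05), 21.6% higher and 21.5% lower in CBE-KO. With libraries scaled by their totals alone, 67.0% of called genes were higher, against 50.2% in the fit reported, and the median of all genes moved from 0.01 to 0.11 on the log2 scale. Pluripotency markers summed to 8165 and 8447 CPM in WT and to 7781 and 7922 CPM in CBE-KO, and all 10 were measured. Of these 10, 9 were called, 2 higher and 7 lower, with a median log2 fold change of -0.34. Extraembryonic endoderm markers summed to 106 and 107 CPM in WT and to 133 and 137 CPM in CBE-KO, with Afp and Ttr at most 4 counts. Of 6 tested, 4 were called, all higher, with a median log2 fold change of 0.64. Fibroblast markers summed to 24.7 to 27.8 CPM in WT and 40.2 to 42.5 CPM in CBE-KO, with Col1a1 and Pdgfrb, 2 of the 3 tested, called higher and with Dcn, Postn and Lum at 0 in all libraries. Trophoblast markers summed to 24.9 to 25.2 CPM in WT and 19.9 to 21.3 CPM in CBE-KO, with Ascl2, 1 of 5 tested, called lower and Tpbpa at 0. Genes of the Y chromosome, which the male E14 line should carry, were near the floor in the libraries labelled WT. Counts of Eif2s3y were 3 and 5 there and 888 and 779 in CBE-KO, and those of Ddx3y 6 and 5 against 920 and 822. The element is not a gene, so no count checks the genotype labels. These differences between the groups move with every result given here. Their part in those results was not tested, and the loss of the element cannot be told apart from any other difference between the 2 cell populations.

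At the Grb10 locus on chromosome 11, Ddc differed more than the members Grb10 and Cobl. Its listed neighbour Ikzf1, at few counts, had a larger log2 fold change (2.67). Ddc (ENSMUSG00000020182, chr11:11814101-11898144) had 25.6 and 27.5 CPM in the WT libraries and 114 and 104 CPM in the CBE-KO libraries. Both CBE-KO libraries lay well above both WT libraries, a 4.10-fold difference in mean CPM and a log2 fold change of 2.04 ± 0.07 (SE). The means were 26.5 ± 1.33 and 109 ± 6.95 CPM (SD, n = 2 each). Grb10 (ENSMUSG00000020176, chr11:11930499-12037428) had 27.9 and 27.8 CPM in WT against 38.1 and 35.1 CPM in CBE-KO. The groups did not overlap, and the log2 fold change was 0.39 ± 0.08 (SE). Cobl (ENSMUSG00000020173, chr11:12236676-12465022) had 216 and 218 CPM in WT against 250.4 and 250.9 CPM in CBE-KO, with a log2 fold change of 0.21 ± 0.05 (SE). Its replicates lay close together in both groups, and the groups did not overlap. In bulk RNA, more cells of a type and more RNA per cell cannot be told apart.

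Ratios of counts within a library do not depend on scaling. Ddc reads per Grb10 read were 0.917 and 0.987 in WT against 2.99 and 2.96 in CBE-KO, a 3.12-fold difference. Ddc reads per Cobl read were 0.119 and 0.126 in WT against 0.454 and 0.414 in CBE-KO. Grb10 reads per Cobl read were 0.129 and 0.128 against 0.152 and 0.140. Within the locus the difference of Ddc was therefore the largest of the 3 members, and the proportion of Grb10 to Cobl separated the groups much less. Levels were not compared between genes, since transcript lengths were not used.

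**Figure D1:**
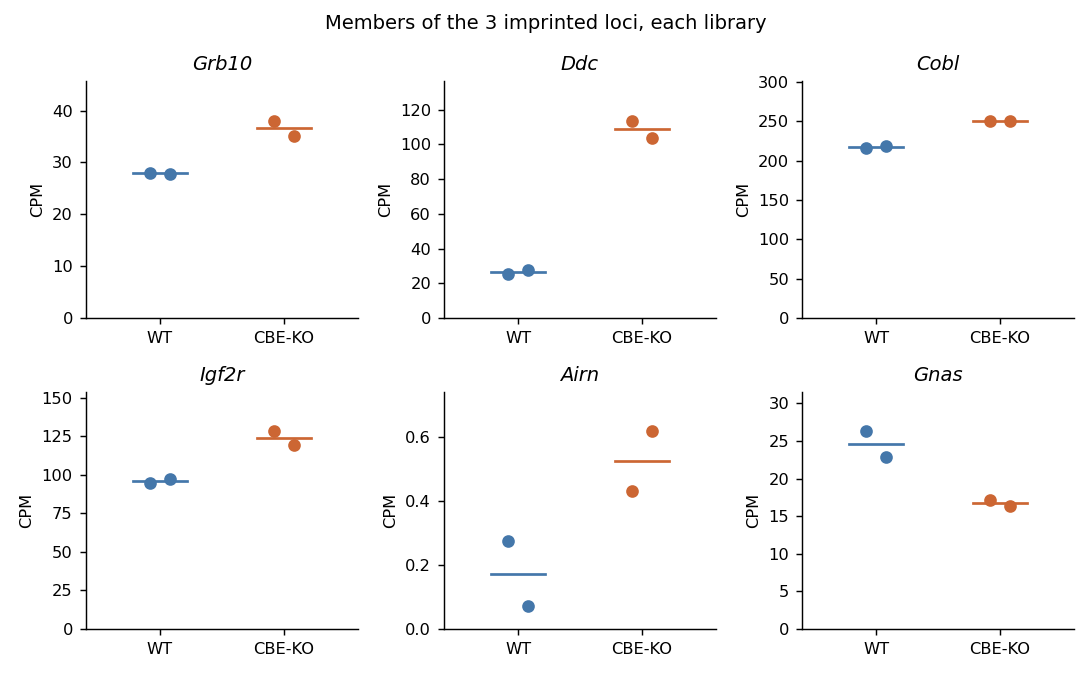
Expression of the 6 members in each library, in CPM from 0 on each vertical axis. Points are libraries (2 per group) and bars are group means. Ddc shows the widest gap, from 26.5 to 109 CPM, Gnas is the only member of lower mean in CBE-KO, and Airn stays at or below 0.619 CPM.

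Genes on either side of these members, listed by their place on the chromosome, were tested in the same fit. Of 8 beside Grb10, Ddc and Cobl, 5 were tested and 3 were called, 2 higher and 1 lower (background 43.1%), with a median log2 fold change of 0.20 against 0.01 for all tested genes. Ikzf1, a zinc finger factor of lymphocyte development, had 2 and 4 counts in WT against 23 and 20 in CBE-KO, and rose by a log2 fold change of 2.67 ± 0.57 (SE; adjusted p = 0.000854, edgeR). Fignl1, a DNA repair ATPase next to Ddc, rose by 0.20 ± 0.06 (SE; adjusted p = 0.00883, edgeR) from 126 and 113 to 140.5 and 134 CPM. That small rise was not called in DESeq2 (0.19, adjusted p = 0.0650), without WT replicate 2 (0.12) or without CBE-KO replicate 1 (0.17), and stood at 0.30 with library totals. Sec61g, a subunit of the protein translocation channel, was lower, at -0.36 ± 0.06 (SE; adjusted p = 6.19e-05, edgeR). Its midpoint lies 4.52 Mb from that of Grb10, and the midpoint of Egfr 4.85 Mb, so neither adjoins the members. Egfr, at -0.27 (edgeR adjusted p = 0.319), and Zpbp, at 0.60 (edgeR adjusted p = 0.394), were not called. Vwc2, Spata48 and Vstm2a had at most 10 counts and were not tested. The transcript 1700042O10Rik (chr11:11868123-11885321), named after its values were seen, is annotated inside the span of Ddc. It had 27 and 31 counts in WT against 79 and 81 in CBE-KO, and rose by 1.34 ± 0.25 (SE; adjusted p = 0.000281, edgeR). Whether the counting used strand is not stated, so its reads cannot be separated from those of Ddc.

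At the Igf2r locus on chromosome 17, the receptor gene was somewhat higher in CBE-KO and its antisense RNA was at the limit of measurement. Igf2r (ENSMUSG00000023830, chr17:12682406-12769706) had 94.6 and 97.0 CPM in WT against 128 and 119.5 CPM in CBE-KO. The groups did not overlap, and the log2 fold change was 0.37 ± 0.05 (SE), from a mean of 95.8 ± 1.70 to 124 ± 6.11 CPM (SD, n = 2 each). Airn (ENSMUSG00000078247, chr17:12741311-12859884) had 4 and 1 counts in WT against 7 and 9 in CBE-KO, and was not tested. Summed over libraries these were 5 and 16 counts, a ratio of 2.95 with a 95% exact counting interval of 1.03 to 10.3. That interval covers counting error only, and replicates in these data differed by more than that. Airn was also chosen with this comparison known, so no difference is read from the interval. The 2 spans overlap on opposite strands, so at these counts Airn reads cannot be separated from those of Igf2r. Igf2r reads per read of M6pr, the gene of the smaller mannose 6-phosphate receptor on another chromosome, were 0.412 and 0.417 in WT against 0.569 and 0.538 in CBE-KO.

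The genes flanking Igf2r differed in both directions. Of 15 listed, 10 were tested and 7 were called, 3 higher and 4 lower (background 43.1%), with a median log2 fold change of -0.02. DESeq2 called 3 of the 10, and 4577 of all 16005 genes. Agpat4, an acyltransferase of phospholipid synthesis, had 17.5 and 14.3 CPM in WT against 27.7 and 25.1 CPM in CBE-KO, and rose by 0.73 ± 0.11 (SE; adjusted p = 5.26e-05, edgeR). Mrpl18, a mitochondrial ribosomal protein gene, had 88.5 and 78.1 CPM in WT against 63.0 and 62.5 CPM in CBE-KO, and fell to a log2 fold change of -0.41 ± 0.07 (SE; adjusted p = 8.32e-05, edgeR). The other 5 called genes moved by less than 0.3 on the log2 scale, and each lost its call in at least 2 alternatives. DESeq2 did not call Map3k4, Wtap, Pnldc1 or Acat2. Map3k4 (0.20) and Wtap (0.16) were not called without CBE-KO replicate 1 (0.16 and 0.15) either, and stood at 0.30 and 0.26 with library totals. Wtap was not called without WT replicate 2 (0.10) or without CBE-KO replicate 2 (0.17) either. Pnldc1 (-0.26) was not called without any 1 of the 4 libraries (-0.30 to -0.23) or with library totals (-0.16). Tcp1 (-0.13) was not called without CBE-KO replicate 1 (-0.13) or replicate 2 (-0.14), and Acat2 (-0.17) was not called without CBE-KO replicate 2 (-0.15). With library totals Tcp1 shrank to -0.029 and Acat2 to -0.064, and neither was called. Acat2 has a near copy in Acat3, so both are uncertain. Slc22a2 and Slc22a3, the neighbours that Airn is known to silence in placenta, had 0 counts in all 4 libraries.

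At the Gnas locus on chromosome 2, Gnas and most genes around it were lower in CBE-KO. Gnas (ENSMUSG00000027523, chr2:174284320-174346744) had 384 and 314 counts in WT against 279 and 238 in CBE-KO, or 26.3 and 22.8 against 17.2 and 16.4 CPM. Both CBE-KO libraries lay below both WT libraries, from a mean of 24.6 ± 2.44 to 16.8 ± 0.590 CPM (SD, n = 2 each), and the log2 fold change was -0.55 ± 0.11 (SE). Of 14 listed neighbours 13 had an identifier, 11 were tested, and 9 were called, all lower, against 21.5% of all tested genes. Their median log2 fold change was -0.54, close to the value of Gnas itself.

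Prelid3b, a mitochondrial lipid transfer protein gene, had 173 and 167 CPM in WT against 88.1 and 85.2 CPM in CBE-KO, and its log2 fold change was -0.97 ± 0.05 (SE; adjusted p = 1.40e-10, edgeR). Vapb, a membrane contact protein of the endoplasmic reticulum, went from 148 and 157 to 95.9 and 93.9 CPM, at -0.68 ± 0.05 (SE; adjusted p = 1.42e-08, edgeR). Ctsz, a lysosomal protease, went from 186 and 166 to 105 and 115 CPM, also at -0.68 (edgeR adjusted p = 9.84e-08). In each of these genes the groups were far apart next to the spread of the replicates. The vesicle fusion gene Stx16 (-0.67), the peptidase gene Npepl1 (-0.54), the vesicle GTPase gene Rab22a (-0.52) and the transcription elongation gene Nelfcd (-0.40) fell as well (edgeR adjusted p = 5.44e-08, 3.20e-06, 1.63e-05 and 4.81e-06). Atp5e, an ATP synthase subunit gene, fell by 0.53 on the log2 scale (edgeR adjusted p = 0.000281) and was not called in DESeq2 (adjusted p = 0.0676). Its WT libraries lay apart, at 127 and 91.5 CPM, and without WT replicate 1 the difference was -0.28. Tubb1, with 14 and 13 counts in WT against 4 and 4 in CBE-KO, fell by 1.84 on the log2 scale (edgeR adjusted p = 0.0144). It was not called in DESeq2 (-1.88), without CBE-KO replicate 1 (-1.76) or without CBE-KO replicate 2 (-1.91). Nespas, the paternal RNA antisense to the upstream Gnas promoter, had 55 and 57 counts in WT against 69 and 51 in CBE-KO. The difference of -0.02 on the log2 scale (95% interval -0.51 to 0.46; edgeR adjusted p = 0.948) was not called. The lower bound lay just short of the fall of Rab22a. Nespas runs antisense to Gnas, and without stated use of strand the reads of both cannot be told apart where they overlap.

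**Figure D2:**
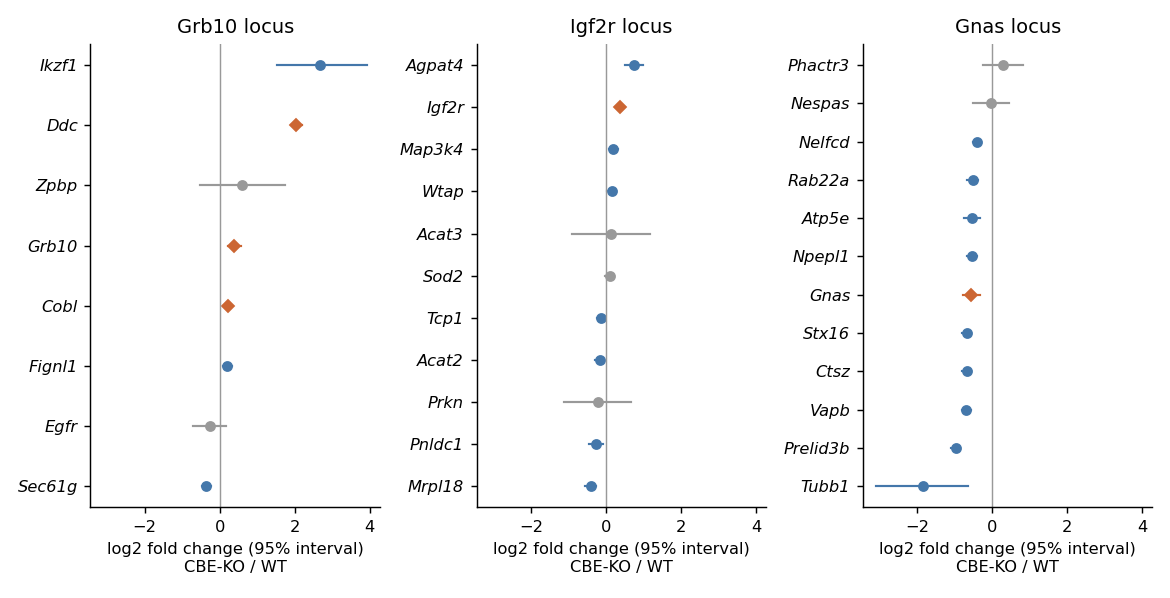
Log2 fold change, CBE-KO over WT, of the tested members (diamonds) and the tested listed neighbours (circles) at each locus, with 95% intervals. Blue circles have an edgeR adjusted p under 0.05 and grey circles do not. Beside Gnas, 9 of 11 neighbours lie left of 0 in blue, whereas neighbours of Igf2r fall on both sides, 3 higher and 4 lower.

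The fall around Gnas was then followed along the chromosome with all tested genes that could be placed by symbol, an analysis added after the neighbours had been seen. Within 2 Mb of Gnas, 34 other genes were tested, with a median log2 fold change of -0.67. Of these, 23 were called lower (67.6%, against 21.5% of all tested genes) and 1 was called higher. The 23 include the 9 listed neighbours already called lower, so this share partly restates them. Centred on each gene's mean, the median log2 level of the 34 genes was 0.34 and 0.33 in the WT libraries and -0.37 and -0.27 in the CBE-KO libraries. The opposite signs of the groups follow from the centring. Libraries of the same group lay close together next to the gap between the groups. The median was also -0.67 with genes under 5 CPM left out, a check added because the window holds near-identical zinc finger genes of low count. Gnas stood in the middle of this window, with 15 genes of a higher and 19 of a lower log2 fold change. Its value exceeded the window's median by 0.12, about its own standard error.

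Low medians were also found farther to the left of Gnas, and less so to the right. Between 5 and 10 Mb to the left, 52 of 68 genes were called lower, with a median of -0.62. Between 10 and 15 Mb to the left 12 of 34 were lower and the median was -0.12, and between 15 and 20 Mb it was 0.03 over 80 genes. To the right, the median was -0.03 over 27 genes at 2 to 5 Mb and -0.20 over 53 genes at 5 to 10 Mb. Between 2 and 5 Mb to the left only 6 genes were tested, 1 called lower and 1 higher, with a median of -0.05. In fixed bins of 5 Mb, 417 bins had at least 10 placed genes. The bin that holds Gnas had the second lowest median of these, -0.54, and the bin next to it on the left had the lowest, -0.70. The lowest bin outside this chromosome, on chromosome 15, had a median of -0.51 over 17 genes. Read counts do not separate the number of gene copies from the RNA made per copy, and the number of copies was not measured.

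Named after their values were seen, Aurka, a kinase of mitosis, went from 343 and 338 CPM in WT to 189 and 182 CPM in CBE-KO (-0.88; edgeR adjusted p = 2.13e-10). Rae1, an mRNA export factor, went from 259 and 255 to 136 and 141 CPM (-0.89; edgeR adjusted p = 2.17e-10). Cstf1, an mRNA cleavage factor next to Aurka, was lower by a similar amount (-0.94; edgeR adjusted p = 3.99e-10). Bmp7, a secreted signal of the BMP family, was the gene called higher in the window, from 8.01 and 9.53 to 12.6 and 15.1 CPM (0.66; edgeR adjusted p = 0.00213). Reads of Gnas per read of its neighbour Npepl1 were 0.377 and 0.335 in WT against 0.362 and 0.347 in CBE-KO, overlapping between groups. Per read of Vapb they were 0.178 and 0.145 against 0.179 and 0.174. Per read of Prelid3b, the neighbour of larger fall, they were 0.152 and 0.137 in WT against 0.195 and 0.192 in CBE-KO, 1.34-fold higher. Against Gnb1, the gene of a G protein beta subunit on another chromosome, they were 0.0621 and 0.0563 in WT against 0.0370 and 0.0357 in CBE-KO. Gnb1 itself was slightly higher in CBE-KO (0.16; edgeR adjusted p = 0.0114), which lowers that ratio further. The groups thus overlapped for Gnas relative to Npepl1 and Vapb, and lay apart in opposite directions relative to Prelid3b and to Gnb1.

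The other loci had fewer tested genes around them. Within 2 Mb of Igf2r, 15 other genes were tested, 5 called higher and 4 lower, with a median of 0.10 that became -0.14 without CBE-KO replicate 2. Igf2r exceeded 13 of these 15. Among them Afdn, a cell junction scaffold gene, rose by 0.34 ± 0.05 (SE; adjusted p = 3.01e-05, edgeR). The bin of 5 Mb around Igf2r had a median of 0.09 and ranked 284 of 417 from the lowest. Within 2 Mb of Grb10 only 4 other genes were tested, 3 of them called higher, against 21.6% of all tested genes. Their median of 0.97 rests on few genes, among them 1700042O10Rik, whose reads cannot be separated from those of Ddc. It was therefore not ranked against the median around Gnas. Of the 4 genes only Fignl1, at 0.20, had at least 5 CPM. Between 5 and 10 Mb to the left of Grb10, 82 genes had a median of -0.04. The difference between the 3 surroundings was not tested.

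**Figure D3:**
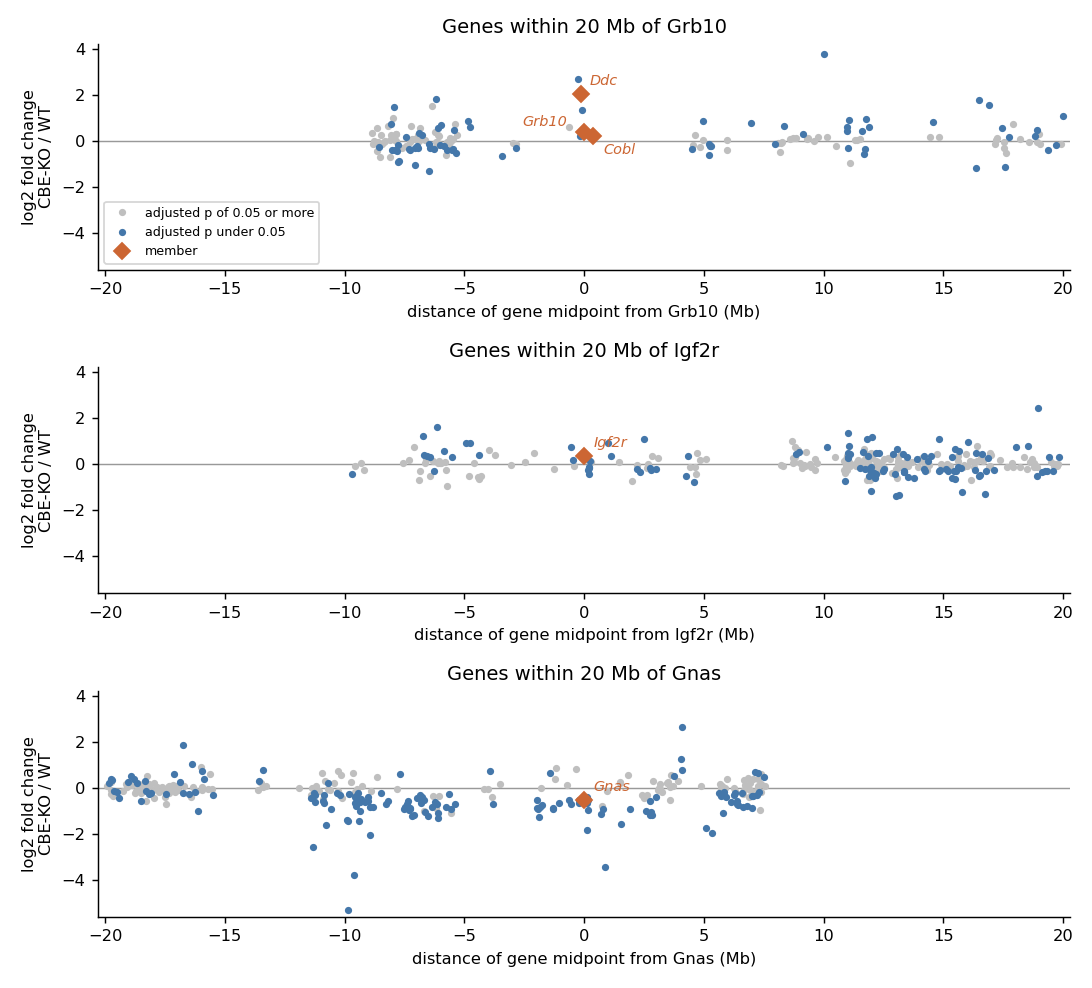
Log2 fold change, CBE-KO over WT, of every tested gene placed within 20 Mb of Grb10, Igf2r and Gnas, against the distance of its midpoint in Mb. Diamonds are members, blue points have an edgeR adjusted p under 0.05 and grey points do not. Around Gnas most points lie below 0 within 2 Mb (median -0.67) and at 5 to 10 Mb to the left (median -0.62). Around Igf2r the median within 2 Mb was 0.10, and only 4 other genes lie that near Grb10.

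The proteins of these loci act in pathways whose other genes were listed by function. Of 22 genes of insulin and IGF1 receptor signalling, the pathway of Grb10, 21 were tested and 13 were called, 7 higher and 6 lower (background 43.1%). Their median log2 fold change was 0.09, against 0.01 for all tested genes. DESeq2 called 8 of them, and 4577 of all 16005 genes. Insr, the insulin receptor, had 322 and 324 counts in WT against 679 and 620 in CBE-KO, a rise of 0.89 ± 0.08 (SE; adjusted p = 1.64e-07, edgeR). Irs1, a docking protein for that receptor, had 3 and 4 counts in WT against 20 and 16 in CBE-KO (2.20 ± 0.56, SE; adjusted p = 0.00376, edgeR), and was not called in DESeq2 (adjusted p = 0.0530). Shc1, an adaptor towards Ras, went from 193 and 202 to 125 and 122 CPM (-0.68; edgeR adjusted p = 1.01e-08). Of the closest relatives of Grb10, Grb14 had 19 and 19 counts in WT against 49 and 40 in CBE-KO, and rose by 1.10 ± 0.31 (SE; adjusted p = 0.00741, edgeR). It was not called in DESeq2 (adjusted p = 0.0811) or without CBE-KO replicate 1 (1.03). Grb7 rose by 0.18 (edgeR adjusted p = 0.0194), and was not called in DESeq2 (adjusted p = 0.132), without WT replicate 1 (0.11) or without CBE-KO replicate 1 (0.16). Igf1r, the IGF1 receptor, was at 0.13 (95% interval -0.03 to 0.30; edgeR adjusted p = 0.196) and not called.

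The list around Igf2r held IGF ligands, their binding proteins, and the mannose 6-phosphate route to the lysosome. Of 28 genes, 25 were tested and 18 were called, 11 higher and 7 lower, with a median of 0.05. Of all tested genes 43.1% were called, 21.6% higher and 21.5% lower. Igf2, itself imprinted and the ligand that Igf2r removes, went from 16.3 and 13.1 CPM in WT to 0.739 and 1.17 CPM in CBE-KO (-3.95; edgeR adjusted p = 9.47e-10). Of 7 listed binding proteins 5 were tested, and all 5 rose. Igfbp7 had 7 and 6 counts in WT against 32 and 27 in CBE-KO (2.04 ± 0.43, SE; adjusted p = 0.000894, edgeR), and Igfbp4 57 and 41 against 109 and 92 (0.92; edgeR adjusted p = 0.00220). Igfbp6 rose by 1.90 (edgeR adjusted p = 0.00711), and stood at 1.91 in DESeq2 without a call (adjusted p = 0.0816), and the abundant Igfbp2 rose from 522 and 526 to 640.1 and 683 CPM (0.34; edgeR adjusted p = 1.91e-05). M6pr, the other receptor for mannose 6-phosphate, was at -0.05 (95% interval -0.15 to 0.05; edgeR adjusted p = 0.461), and its sign turned with library totals (0.058). Among lysosomal enzymes, Gusb (0.48) and Ctsl (0.28) rose (edgeR adjusted p = 9.69e-05 and 0.000148), while Ctsz, which lies beside Gnas, fell. Nagpa, which uncovers the mannose 6-phosphate tag, fell by 0.57 on the log2 scale (edgeR adjusted p = 0.000302).

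Of 33 genes of stimulatory G protein and cAMP signalling, the pathway of Gnas, 31 were tested and 16 were called, 14 higher and 2 lower, against 43.1% of all tested genes called, 21.6% higher and 21.5% lower. The median was 0.17, and 12 to 20 genes were called under the other scalings, filters and DESeq2. The adenylyl cyclase gene Adcy3 had 12.7 and 9.60 CPM in WT against 24.5 and 22.1 CPM in CBE-KO (1.06 ± 0.13, SE; adjusted p = 5.32e-06, edgeR). Adcy1 rose by 0.87 and Adcy7 by 0.86 (edgeR adjusted p = 1.64e-07 and 0.00234). Prkar2b, a regulatory subunit of protein kinase A, had 18 and 25 counts in WT against 91 and 103 in CBE-KO (2.05 ± 0.27, SE; adjusted p = 8.07e-06, edgeR). Pde3b, a phosphodiesterase that degrades cAMP, had 37 and 44 against 109 and 128 counts (1.43; edgeR adjusted p = 6.40e-05). Crtc3, a coactivator of CREB, rose by 1.06 (edgeR adjusted p = 0.00298). The genes called lower were Ric8b, a chaperone of the stimulatory alpha subunit (-0.51; edgeR adjusted p = 4.90e-05), and Prkar2a (-0.26; edgeR adjusted p = 0.000938). Gnal, the nearest relative of Gnas, had 44 and 46 counts in WT against 61 and 58 in CBE-KO, and was not called (0.28, 95% interval -0.21 to 0.79; edgeR adjusted p = 0.359). Gnas was lower in CBE-KO, while 14 of the 16 called genes of the list were higher.

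In the list of aromatic amine synthesis and breakdown, the pathway of Ddc, 8 of 13 genes were tested and 5 were called, 3 higher and 2 lower (background 43.1%), with a median of 0.06. The enzymes that supply Ddc with its substrates had at most 12 counts in any library. Th had 12 and 9 counts in WT against 3 and 4 in CBE-KO, Tph2 had 2 and 1 against 7 and 10, Tph1 at most 1, and none of these was tested. Gch1, the first enzyme in making their cofactor tetrahydrobiopterin, had 4.65 and 4.44 CPM in WT against 10.1 and 10.2 CPM in CBE-KO (1.16 ± 0.17, SE; adjusted p = 4.02e-05, edgeR). Pts, the next enzyme, rose by 0.74 and Spr, the last, fell to -0.31 (edgeR adjusted p = 0.000374 and 0.000140). With library totals Spr was at -0.21. Slc18a1, a vesicular amine transporter, was at -0.61 (edgeR adjusted p = 0.0482). It lost its call in DESeq2 (adjusted p = 0.204), with upper-quartile scaling or library totals, without WT replicate 2 (-0.48) and without either CBE-KO library (-0.83 and -0.43). Without CBE-KO replicate 2, 3 genes of the list were called.

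Of 22 genes of actin nucleation, the function of Cobl, all were tested and 7 were called, 4 higher and 3 lower (background 43.1%), with a median of -0.02. With library totals alone 11 were called. Cobll1, the paralogue of Cobl, had 14 and 14 counts in WT against 70 and 47 in CBE-KO (1.93 ± 0.32, SE; adjusted p = 9.67e-05, edgeR). Spire2, an actin nucleator of vesicle transport, went from 48.6 and 53.8 to 28.7 and 27.8 CPM (-0.86; edgeR adjusted p = 1.62e-07). The formin genes Fmn1 and Fmn2 rose by 0.91 and 0.86 (edgeR adjusted p = 0.00818 and 0.00193). Fmn1 was not called in DESeq2 (adjusted p = 0.0728) or without WT replicate 2 (0.69).

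**Figure D4:**
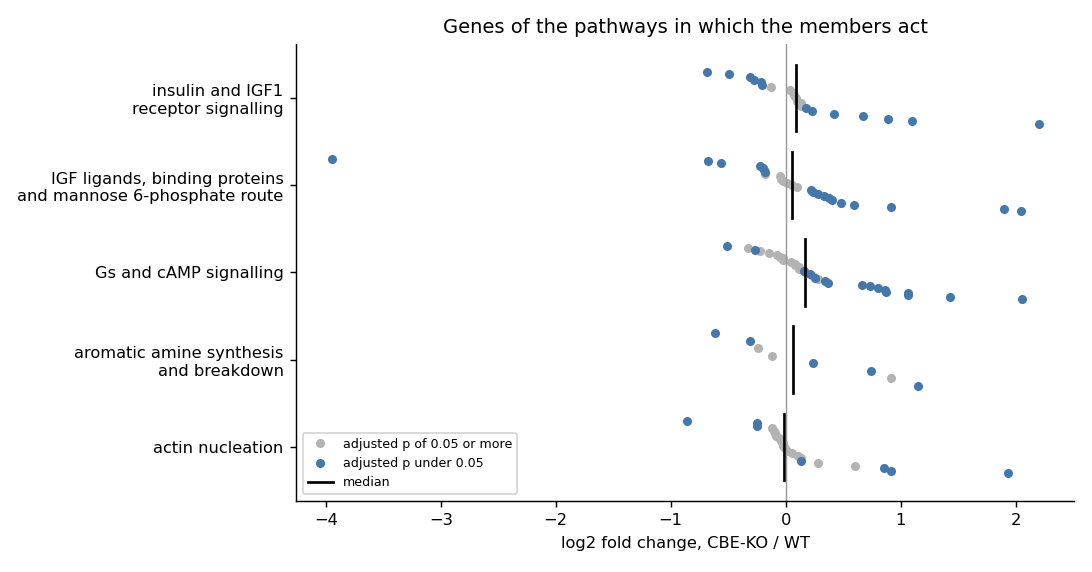
Log2 fold change, CBE-KO over WT, of the tested genes in 5 function lists, 1 point a gene, blue where the edgeR adjusted p is under 0.05, with a black bar at each median. Medians run from -0.02 for actin nucleation to 0.17 for stimulatory G protein and cAMP signalling. Igf2 is the point at -3.95.

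The genes whose 4 library values ran most like those of a member were sought among 11109 tested genes of at least 5 CPM, by the distance between log2 CPM centred on each gene's mean. For Ddc these were Aim2 and Sohlh2, with log2 fold changes of 2.08 and 1.99 (distances 0.07 and 0.12). For Grb10 they were Bmpr1a and Mpp7, for Cobl Slc7a5 and Pip5k1c, for Igf2r Zfp30 and Hook1, and for Gnas Gpn1 and Rbfa. None of these 10 genes lies on its member's chromosome. With 4 libraries in 2 groups, such likeness mostly records a similar difference between the groups.

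All 5 tested members were called by the same rule as 43.1% of all tested genes, and the groups did not overlap for any of the 5, as was the case for 70.4% of all tested genes. Since the members were chosen with this comparison known, nothing is read from these counts. In the order of their log2 fold changes the members ran from Ddc (2.04) over Grb10 (0.39), Igf2r (0.37) and Cobl (0.21) to Gnas (-0.55). The values of Grb10 and Igf2r lay within a standard error of each other.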

How the data were processed

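The authors deposited 1 table of read counts per RNA-seq library, in whole numbers by Ensembl identifier, as the values show. Per the submitters' processing notes the tools included HISAT2 2.1.0 and HTSeq 0.9.1, with the build mm10. The use of strand, the annotation release and the handling of reads matching several genes are not given in the sources used here. Symbols came from a supplied name table (52403 of 52636 identifiers matched). Positions came from RefSeq on GRCm38.p6 by symbol and placed 14998 of 16005 tested genes. The 6 Capture-C samples, DNA contact libraries, were not analysed here.

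Genes passing edgeR's filterByExpr were scaled by TMM and tested with edgeR 4.0.16 (R 4.3.3; glmQLFit and glmQLFTest, two-sided, Benjamini-Hochberg over all tested genes, threshold 0.05). CPM use TMM-scaled library sizes, and standard errors and 95% intervals come from the same fit. That fit draws the variance of each gene towards that of all tested genes (prior degrees of freedom 15.3). Centred log2 CPM used a prior count of 2. DESeq2 1.42.0, other scalings and filters, the replicate block and leaving out each library were alternatives. The test was also run on simulated counts with far fewer changed genes than were called here, equally up and down. That setting differs from these data, and no result rests on it. Members and lists were chosen with earlier results of these data known. Named genes were the members, their closest relatives or ligand, all called neighbours, the 4 called genes of largest change in each function list and the 2 most similar genes per member. Any other gene was named after its values were seen.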

Additional observations from a re-analysis of the deposited data

How the results depend on the processing

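The 5 tested members kept their direction and their call under DESeq2, the 3 other scalings, both other filters, the replicate block and the loss of any 1 library. Without 1 library the log2 fold changes ran from 0.33 to 0.45 for Grb10, at least 1.97 for Ddc, 0.20 to 0.21 for Cobl, 0.32 to 0.42 for Igf2r and -0.65 to -0.44 for Gnas. DESeq2 called 4577 genes, 2047 of them higher, against 6895 and 3461, and an adjusted p under 0.01 left 4917. DESeq2 called 3 neighbours of Igf2r, 8 insulin and IGF1 signalling genes and 3 aromatic amine genes, and library totals called 11 actin nucleation genes. Leaving out 1 library gave 5385 to 6500 calls in all, 3 to 6 among Igf2r neighbours, 8 to 9 among Gnas neighbours and 3 to 4 among aromatic amine genes. M6pr turned to 0.058 with library totals. The median within 2 Mb of Igf2r ran from -0.14, without CBE-KO replicate 2, to 0.10 with 1 library left out. That median was 0.20 with library totals, where the median within 2 Mb of Gnas was -0.57. The cause of these shifts was not tested. Deviations of same-numbered libraries had a correlation of 0.03. The labels do not say that the numbers mark shared cultures, and a fit with that number as a block called 7027 genes. With 2 libraries a group, small changes near the threshold are the least certain, and Airn lay near the floor of 3 counts.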
